A study of Mus musculus with 6 samples.

Results

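The genes described here are 224 mouse zinc finger genes whose symbol is Zfp followed by digits alone. They were chosen from 27179 gene identifiers in the deposited table: the identifier had to match a protein-coding gene with such a symbol, and its mean over the 6 libraries had to reach 200 raw counts. Zfp36 and Zfp42 were left out by the rule that chose the genes. Of 360 protein-coding symbols of this form, 357 had at least 1 count and 336 passed the filter on low counts that precedes the test. All 224 chosen genes were among those tested. The mean count is the measured value that made the choice. Zfp738, Zfp772 and Zfp53 lay just inside the limit with mean counts of 200.3, 202.3 and 206.7, and Zfp113, Zfp933 and Zfp235 just outside it with 197.7, 196.3 and 191.

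The samples were mouse embryonic stem cells of the ES-E14TG2a background, grown in 2i + Lif medium, in which inhibitors of MEK and GSK3 and the cytokine leukemia inhibitory factor hold cells in a naive pluripotent state. Trim71, a TRIM-NHL protein that binds RNA and helps to keep stem cells undifferentiated, carried a FLAG tag in every library, so the tag is shared by both groups. In 3 libraries the tagged protein had the R783H change, which the series links to hydrocephalus, and in 3 it was wild type (WT). Whether A, B and C are separate clones or cultures is not given in the labels, so the p-values measure the spread between these libraries, which may be technical. Oligo(dT)-selected RNA was sequenced, and the comparison asks how the R783H change alters the transcripts of these cells.

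C2H2 zinc finger proteins bind DNA, and some of them RNA, through small domains in which cysteines and histidines hold a zinc ion. They form the largest family of transcription factors in mammals. Many carry a KRAB box, a short domain that recruits the corepressor Trim28 and through it histone and DNA methylation. KRAB zinc finger genes lie in clusters of duplicated genes, evolve quickly, and are best known in embryonic stem cells for keeping retrotransposons and imprinted regions silent. Members without a KRAB box are older on the whole and have more varied functions, from pluripotency control to splicing, ribosome quality control and spindle assembly.

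Total counts per library ran from 20894277 to 29079670, with the R783H libraries the deeper ones. Levels are given as CPM, the count relative to library size after scaling between libraries. Trim71 itself (Entrez Gene 636931) stood at 152, 129 and 150 CPM in R783H A, B and C and at 131, 131 and 159 CPM in WT A, B and C, so the groups overlapped. Its log2 fold change, R783H over WT, was 0.03 with a standard error (SE) of 0.08 (edgeR's quasi-likelihood test, adjusted p = 0.743). The amino-acid change cannot be seen in counts per gene, and exons of Trim71 overlap an antisense gene. The 7 naive stem cell markers had summed levels of 5277 to 5343 CPM in R783H and 5282 to 5397 CPM in WT, with 2 of the 7 called higher and 2 lower. Summed markers of other lineages were low, and their ranges did not overlap between the groups: they went in 3 tested endoderm genes from 3.06–4.80 to 7.44–8.38 CPM, 3 mesoderm genes from 59.6–63.5 to 34.5–39.8 CPM, 2 neural genes, 1 called higher and 1 lower, from 8.76–9.62 to 12.3–14.9 CPM and 3 fibroblast genes from 2.95–3.51 to 1.83–2.60 CPM. Foxa2, Sox7, Pax6, Col3a1, Postn and Lum were too low to be tested. Their part in the results below was not tested, and in bulk RNA fewer cells of a type and less RNA per cell cannot be told apart.

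More of the zinc finger genes rose than fell in R783H cells. A gene is called where its adjusted p is under 0.05 in edgeR's quasi-likelihood test, adjusted by Benjamini and Hochberg's method over the 14199 genes tested. Of the 224 genes, 116 were called higher, 29 lower and 79 were not called. Among all tested genes 33.5% were called higher and 30.9% lower, and among the 9609 tested genes with the same mean of at least 200 counts 35% were called higher and 36.3% lower. In either direction 145 of the 224 were called, against 64.5% of all tested genes and 71.3% of those with at least 200 counts. The share of zinc finger genes called higher, 51.8%, stood above that background, and the share called lower, 12.9%, below it. The median log2 fold change was 0.23 over the zinc finger genes and 0.03 over all tested genes. Most changes were small, in this family as in the whole comparison. Of the 145 called members, 108 changed by less than 1.5-fold, beside 5159 of the 6848 called genes with at least 200 counts. The range ran from -1.84 to 1.43, and 2 members rose and 3 fell by at least 2-fold. Of the 9609 genes with at least 200 counts, 233 rose and 93 fell by at least 2-fold. In 102 of the 224 genes every R783H library lay above every WT library, and in 37 every R783H library lay below, against 35% and 33.1% of all tested genes.

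The KRAB genes and the others differed in how they divided between increases and decreases. A KRAB box was found in the translated coding sequence of 128 genes and in none of the products of 95, and Zfp977 had no matched coding sequence and is in neither kind. Of the 128 KRAB genes, 74 (57.8%) were called higher and 5 (3.91%) lower, at a median log2 fold change of 0.27. Of the 95 genes without a KRAB box, 41 (43.2%) were called higher and 24 (25.3%) lower, at a median of 0.09. The 5 KRAB genes called lower were Zfp334, Zfp566, Zfp248, Zfp212 and Zfp282, of which 3 are on chromosome 6. The difference between the kinds is given as counts and has no test. KRAB genes encoded a median of 12 fingers (2 to 23), the others a median of 8 (0 to 36). Genes with up to 4 fingers were called higher in 13 of 38 and lower in 12, and those with 5 to 9 higher in 31 of 63 and lower in 10. With 10 to 14 fingers 45 of 80 were called higher and 3 lower, and with 15 or more 26 of 42 higher and 4 lower. Of the 38 genes with up to 4 fingers, 31 had no KRAB box. Within the KRAB genes, those with up to 4 fingers had 2 of 7 called higher and 1 lower. The counts were 17 of 31 higher and 3 lower with 5 to 9 fingers. With 10 to 14 fingers 35 of 60 were called higher and 1 lower, and with 15 or more 20 of 30 higher and 0 lower. Genes without a KRAB box had 11 of 31 higher and 11 lower with up to 4 fingers, and 14 of 32 higher and 7 lower with 5 to 9. In the same kind 10 of 20 were called higher and 2 lower with 10 to 14 fingers, and 6 of 12 higher and 4 lower with 15 or more. Spearman's rho of the log2 fold change with the number of fingers was 0.18 over the KRAB genes and 0.21 over the others.

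Among these members the kinds also differed in level. Divided by transcript length, WT levels of KRAB genes had a median of 3.86 CPM per kb and a range from 0.410 to 183, and the others a median of 7.93 CPM per kb and a range from 1.78 to 95.5. Members were chosen by a mean of at least 200 counts, so genes at low levels are missing from both kinds. The medians and lowest values depend on that rule and do not describe all genes of either kind. The highest WT level per kb among the 223 genes with a length was that of Zfp57, a KRAB protein that protects imprinted methylation, at 183 CPM per kb. Zfp207, a spindle assembly factor, followed with 95.5 CPM per kb, then Zfp428 with 70.4, Zfp106 with 68.5, Zfp706 with 68.0 and Zfp553 with 65.8 CPM per kb. Of these 6 genes, Zfp207, Zfp428 and Zfp706 fell in R783H and the other 3 were not called.

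Fold changes went with transcript length in these libraries, across all genes and within the family. Among tested genes with at least 200 counts, 17.9% of those with a longest transcript under 2000 nt were called higher and 56% lower, against 43.9% and 26.1% from 4000 to under 6000 nt and 62.3% and 13.4% from 6000 nt. In the zinc finger genes the share called higher climbed with length too, and the share called lower did not fall at every step: 4 of 15 were called higher and 5 lower under 2000 nt, 48 of 108 higher and 14 lower from 2000 to under 4000 nt, 32 of 56 higher and 8 lower from 4000 to under 6000 nt, and 31 of 44 higher and 2 lower from 6000 nt. Genes without a KRAB box spanned this range. From 2000 to under 4000 nt, 9 of 34 rose and 12 fell with a median of -0.04, where 27.1% of well-counted genes of that length rose and 42.1% fell with a median of -0.08. At 6000 nt and above, 19 of 26 rose and 1 fell with a median of 0.33, where the median of well-counted genes was 0.29. KRAB genes had positive medians in every bin, 0.17 in 7 genes under 2000 nt, 0.26 in 74 genes from 2000 to under 4000 nt, 0.31 in 29 genes from 4000 to under 6000 nt and 0.35 in 18 genes from 6000 nt. In the 2000 to under 4000 nt bin, which holds most of them, 39 of the 74 KRAB genes were called higher and 2 lower. Their median length, 3483 nt, was close to the 3494.5 nt of well-counted genes and below the 4143 nt of members without a KRAB box.

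**Figure D1:**
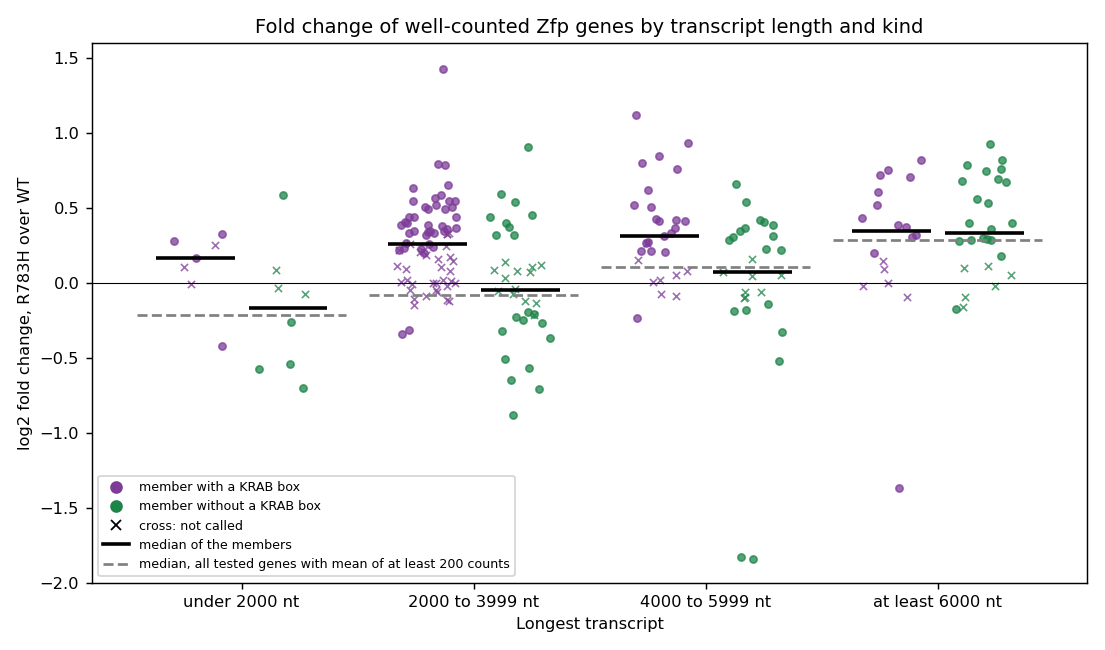
Log2 fold change of R783H over WT for 223 zinc finger genes (y axis) in 4 bins of longest transcript length (x axis), with KRAB genes in purple and the others in green; circles are called genes, crosses are genes not called, black lines are medians of the members and dashed grey lines medians of all tested genes with a mean of at least 200 counts. The grey line climbs from -0.21 to 0.29, the green medians from -0.17 to 0.33, and the purple medians stay between 0.17 and 0.35.

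GC content differed between the kinds as well. Transcripts of KRAB genes had a median GC content of 41.9%, against 48.8% in genes without a KRAB box and 49.7% in well-counted genes. Of 65 KRAB genes under 42% GC, 42 were called higher and 0 lower, at a median log2 fold change of 0.39. At 50% GC or more, 6 of 17 KRAB genes were called higher and 2 lower, at a median of 0.15. Well-counted genes were called higher in 37.7% and lower in 26.8% under 42% GC, with a median of 0.08, and in 32.3% and 40.5% at 50% or more. Restricted to transcripts of 2000 to under 4000 nt under 42% GC, 19 of 34 KRAB genes were called higher and 0 lower at a median of 0.34, beside 27.2% higher and 34.9% lower at a median of -0.02 in 393 well-counted genes. Across genes, Spearman's rho of the log2 fold change with GC content was -0.45 over 128 KRAB genes and -0.13 over 9298 well-counted genes, and with transcript length 0.18 over KRAB genes, 0.47 over 95 genes without a KRAB box and 0.36 over well-counted genes. These genes share libraries and clusters and are not independent. When a smooth trend with length and GC content was removed from each library before the test, 80 of the 128 KRAB genes were called higher and 9 lower, and 42 of the 95 others higher and 29 lower.

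The R783H libraries were not alike for this family. Summed over the 128 KRAB genes, the level was 4247, 3644 and 4188 CPM in R783H A, B and C and 3385, 3523 and 3697 CPM in WT A, B and C. R783H A and C lay above every WT library, and R783H B lay within the WT range. Summed over the 95 genes without a KRAB box the levels were 6192, 5804 and 6228 CPM in R783H and 5749, 5773 and 5929 CPM in WT, again with R783H B inside the WT range. The median difference of a KRAB gene from its WT mean, on the log2 scale, was 0.36, 0.14 and 0.31 in R783H A, B and C, and -0.08, -0.00087 and 0.08 in WT A, B and C. R783H B was the lowest of the R783H libraries in 93 of the 116 members called higher (80.2%), against 53.2% of 3359 well-counted genes called higher. Leaving out R783H B gave 83 KRAB genes called higher and 8 lower, and leaving out WT A gave 54 higher and 5 lower.

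**Figure D2:**
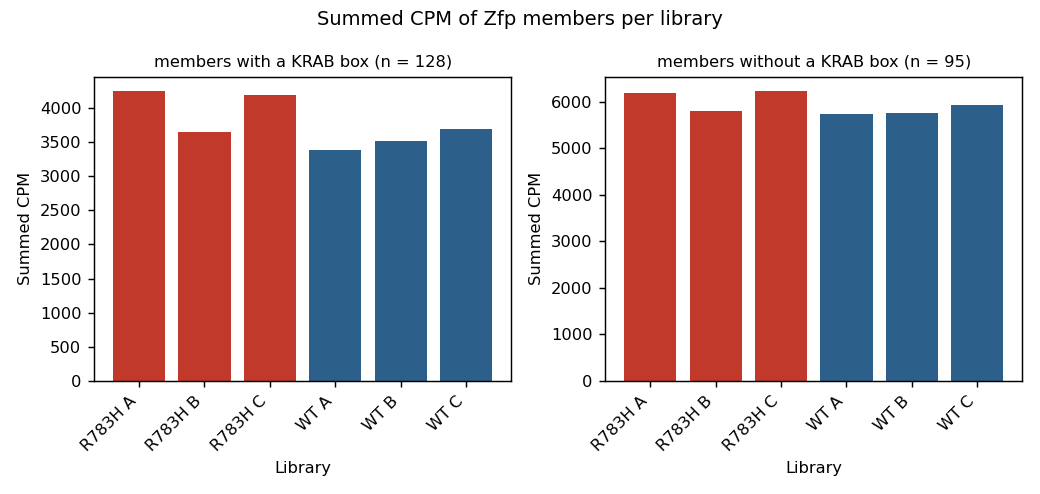
Summed CPM (y axis, from 0) of the 128 members with a KRAB box (left) and the 95 without (right) in each library (x axis), with R783H in red and WT in blue. R783H A and C stand above all WT bars in both panels, and R783H B, at 3644 and 5804 CPM, lies within the WT range.

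The largest increases were moderate in level. By a fixed rule these are the 10 largest increases among called members whose groups did not overlap, and 7 of them are KRAB genes. Zfp951 (Entrez Gene 626391, chr5:104802246-104860157 of GRCm38), a KRAB gene with 10 fingers, stood at 14.6, 12.2 and 15.5 CPM in R783H A, B and C and at 4.95, 5.02 and 5.72 CPM in WT. Every R783H library was above every WT library, and the log2 fold change of 1.43 (SE 0.11) was the largest of the 224 (edgeR's quasi-likelihood test, adjusted p = 1.23e-06). Zfp229 (Entrez Gene 381067, chr17:21730955-21748969), a KRAB gene with 16 fingers, was at 48.0, 33.9 and 45.6 CPM in R783H and at 18.5, 18.2 and 22.1 CPM in WT. Its R783H B value was the lowest of the mutant libraries and still above all WT values, with a log2 fold change of 1.12 (SE 0.12; edgeR's quasi-likelihood test, adjusted p = 1.47e-05). These were the only members to rise by at least 2-fold.

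Among members without a KRAB box the largest increase was that of Zfp516 (Entrez Gene 329003, chr18:82909688-83005314), a factor known for driving the thermogenic program of brown fat. Its levels were 116, 110 and 113 CPM in R783H and 55.9, 60.2 and 62.7 CPM in WT, so the 3 libraries of each group lay close together and far from the other group. The log2 fold change was 0.93 (SE 0.05; edgeR's quasi-likelihood test, adjusted p = 1.62e-07). Zfp839, in whose product no finger of the family's spacing was found, rose from 8.41 ± 0.471 to 15.7 ± 0.405 CPM (SD, n = 3 each), a log2 fold change of 0.91. Zfp329, with 12 fingers and no KRAB box found, rose from 11.99 ± 0.418 to 21.2 ± 3.74 CPM, and R783H B with 16.9 CPM was the lowest of its mutant libraries. The remaining 5, all KRAB genes, were Zfp600 (0.94), Zfp980 (0.85), Zfp738 (0.82), Zfp992 (0.80) and Zfp975 (0.79), where the number is the log2 fold change. Zfp975 shares near-identical stretches with another gene over 12.96% of its transcript, so its reads could be split between copies. The same limit holds for Zfp600, Zfp980, Zfp738 and Zfp992, which also have near-identical stretches in other genes.

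The largest decreases came mostly from genes without a KRAB box, 9 of 10. Zfp365 (Entrez Gene 216049, chr10:67886105-67912662), which encodes a partner of the neuronal scaffold protein DISC1, fell from 18.9, 17.2 and 17.9 CPM in WT to 5.36, 4.76 and 4.93 CPM in R783H. Its log2 fold change was -1.84 (SE 0.09; edgeR's quasi-likelihood test, adjusted p = 5.23e-08). Zfp423 (Entrez Gene 94187, chr8:87661810-87962053), a DNA-binding protein with 27 fingers found here that works with SMAD and EBF factors and is needed for cerebellar development, fell from 27.2, 25.5 and 26.3 CPM in WT to 6.72, 7.89 and 7.60 CPM in R783H. Its log2 fold change was -1.83 (SE 0.08; edgeR's quasi-likelihood test, adjusted p = 3.55e-08). In both genes the groups stood far apart; R783H B was the mutant library nearest to WT in Zfp423 and the farthest from it in Zfp365.

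Zfp334 (Entrez Gene 228876, chr2:165374264-165388315) was the KRAB gene with the largest decrease. It stood at 5.46, 4.19 and 4.90 CPM in R783H and at 11.3, 13.9 and 12.3 CPM in WT, with a log2 fold change of -1.37 (SE 0.12; edgeR's quasi-likelihood test, adjusted p = 2.05e-06). Zfp207 (Entrez Gene 22680, chr11:80383279-80408561), also called BuGZ, which binds Bub3 and helps kinetochores and spindles to form, was the most abundant of the 10. Its levels were 211, 208 and 215 CPM in R783H and 314, 312 and 313 CPM in WT, a tight separation with a log2 fold change of -0.57 (SE 0.04; edgeR's quasi-likelihood test, adjusted p = 4.32e-07). Zfp428, with 1 finger found, fell from 83.3 ± 3.05 to 55.9 ± 3.89 CPM, and Zfp593, a small protein linked to ribosome assembly, from 11.8 ± 0.775 to 7.55 ± 0.314 CPM. An antisense or opposite-strand gene overlaps exons of each of these 2 genes. Zfp105, Zfp422, Zfp637 and Zfp771 had log2 fold changes of -0.88, -0.71, -0.70 and -0.54. Zfp422 has a near-identical stretch in another gene. Zfp771 was not called after the length and GC trend was removed, and the other 19 genes of the 2 lists of 10 kept their call under every alternative run.

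**Figure D3:**
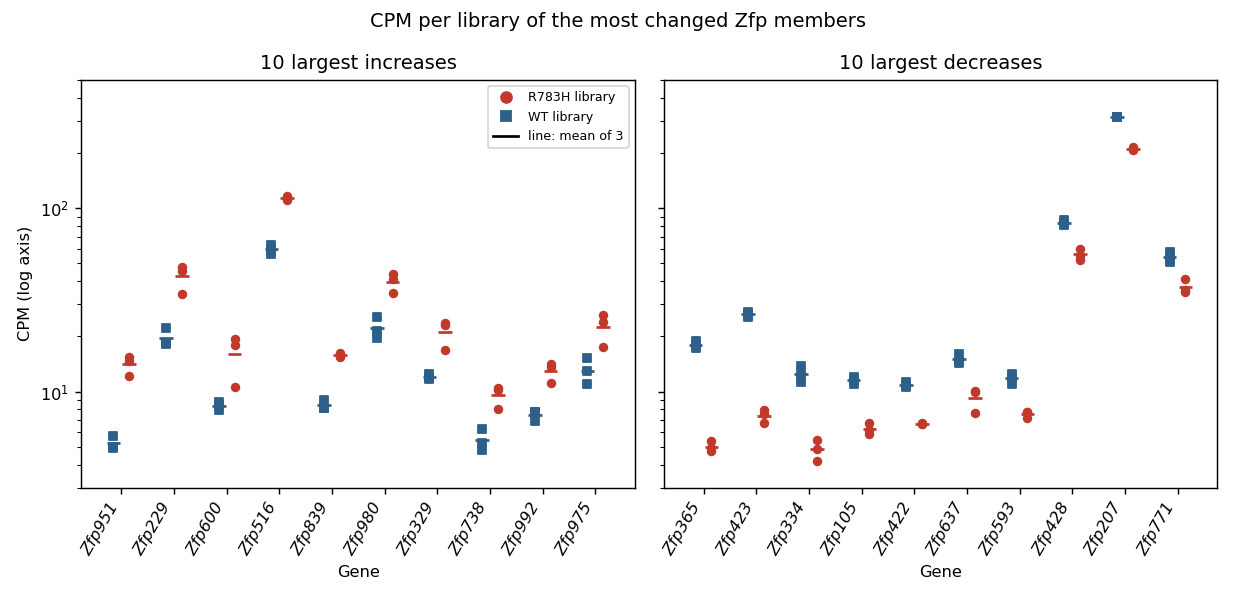
CPM per library (y axis, log scale) of the 10 members with the largest increase (left) and the 10 with the largest decrease (right), with R783H libraries as red circles, WT libraries as blue squares and a line at the mean of each group's 3 libraries. The groups do not overlap in any of the 20 genes, which was part of how they were chosen, and the R783H points are most spread in Zfp600, from 10.5 to 19.3 CPM.

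Members with well known functions were followed by a list of 40 genes taken from general knowledge, of which 36 are members. Of these 36, 17 (47.2%) were called higher, 6 (16.7%) lower and 13 were not called, beside 35% higher and 36.3% lower in well-counted genes and 51.8% and 12.9% in all 224 members. The KRAB proteins best known for imprinting stayed near their WT levels. Zfp57, which binds methylated imprinting control regions, was at 482, 433 and 468 CPM in R783H and at 474, 482 and 471 CPM in WT, with a log2 fold change of -0.04 (SE 0.05). Zfp445, its partner in imprint maintenance, was at 111, 83.1 and 112 CPM in R783H and at 87.2, 93.0 and 96.7 CPM in WT, so R783H A and C lay above WT and R783H B below it, with a log2 fold change of 0.15 (SE 0.10). Zfp568, which silences a placental promoter of Igf2, had a log2 fold change of -0.02 (SE 0.05) at 319 ± 19.5 against 324 ± 11.2 CPM. None of these 3 genes was called. Under at least 1 of the 17 alternatives Zfp568 was called lower and Zfp445 higher, with log2 fold changes reaching -0.21 and 0.25. Zfp809, which recognises the primer binding site of murine leukemia viruses, rose from 21.4 ± 1.38 to 26.8 ± 3.17 CPM, a log2 fold change of 0.33 (edgeR's quasi-likelihood test, adjusted p = 0.0078). Zfp819, linked to the silencing of retroelements, had a log2 fold change of 0.23 and lost its call under 9 of the 17 alternatives. The other KRAB genes of the list, Zfp746, a repressor known as PARIS, and Zfp110, an interactor of the p75 neurotrophin receptor, rose with log2 fold changes of 0.34 and 0.20.

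Among regulators of pluripotency and chromatin, several rose and others fell. Zfp462, which works with the H3K9 methyltransferases Ehmt1 and Ehmt2, stood at 168, 143 and 166 CPM in R783H and at 96.5, 94.4 and 109 CPM in WT, a log2 fold change of 0.67. Zfp217, a corepressor subunit, rose from 88.8 ± 6.52 to 113 ± 5.54 CPM. Zfp706, which promotes exit from the naive state, fell from 300.4 ± 4.05 to 239.0 ± 2.72 CPM, a log2 fold change of -0.33; 9.80% of its transcript is near-identical to other genes. Zfp281, a regulator of the passage out of naive pluripotency, and Zfp296, a reprogramming factor, were not called, with log2 fold changes of -0.06 and -0.03. After removal of the length and GC trend Zfp296 was called higher, with 0.19. Zfp219 and Zfp131 fell with log2 fold changes of -0.23 and -0.20, the first losing its call when the length and GC trend was removed and the second under 5 alternatives. Zfp687 and Zfp592, partners in a zinc finger corepressor complex, rose with log2 fold changes of 0.22 and 0.29. Zfp652 and Zfp609 rose with 0.40 and 0.18, and Zfp148, a GC-box binding factor, with 0.30; these 3 and Zfp592 were no longer called higher after the length and GC trend was removed. Zfp143, a promoter-binding factor, Zfp384, Zfp335 and Zfp644 were not called, with log2 fold changes of 0.14, -0.07, -0.09 and -0.16. Each of them was called under at least 1 alternative, and Zfp644 reached -0.38.

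The members that act on RNA, protein and signalling divided as well. Zfp598, the ubiquitin ligase that marks collided ribosomes, fell from 161 ± 5.64 to 135 ± 3.25 CPM, a log2 fold change of -0.25. Zfp638, which binds cytidine-rich DNA and recruits the HUSH silencing complex, rose from 135 ± 8.81 to 179 ± 26.7 CPM, with R783H B at 148 CPM and WT C at 143 CPM. Zfp292 rose from 103 ± 12.05 to 179 ± 29.3 CPM, a log2 fold change of 0.79, Zfp318 from 36.0 ± 2.18 to 52.0 ± 5.09 CPM, and Zfp91, a ubiquitin ligase, from 44.8 ± 2.10 to 59.4 ± 6.81 CPM. Transcripts of Zfp292, Zfp318, Zfp462 and Zfp638 are all longer than 6000 nt, the bin in which 62.3% of well-counted genes were called higher. Zfp326, part of a complex that links transcription to splicing, had a log2 fold change of 0.30 and lost its call when any of R783H A, R783H C, WT A or WT B was left out. Zfp106 and Zfp346, which bind RNA, Zfp830, a splicing protein, and Zfp451, a SUMO ligase, were not called at log2 fold changes of -0.10, -0.05, 0.08 and 0.10. Under at least 1 alternative Zfp106 was called lower and Zfp830 higher, with log2 fold changes reaching -0.36 and 0.20. After removal of the length and GC trend Zfp451 was called lower, with a log2 fold change of -0.26 (edgeR's quasi-likelihood test, adjusted p = 9.22e-05).

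Clusters were defined as at least 3 protein-coding genes with a Zfp symbol of this form, each starting within 500 kb of the next. Of 34 such clusters in the RefSeq table, 33 held a member and 20 held at least 3. Members inside clusters were called higher in 72 of 134 and lower in 14, those outside in 44 of 90 and 15. Well-counted genes were called higher in 35% and lower in 36.3%, with a median log2 fold change of -0.003. On chromosomes 2, 4, 8, 9, 13, 15, 17 and 18 their shares ran from 33.4% to 38.9% higher and from 33.5% to 40.1% lower. For KRAB genes the counts were 62 of 104 higher and 4 lower inside clusters, and 12 of 24 higher and 1 lower outside. Of the 20 clusters, 17 had a positive median log2 fold change and 3 a negative median, and 13 had 0 members called lower.

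The cluster with the highest median lay at chr4:145510759-146991471, on distal chromosome 4, a region whose KRAB genes are known for silencing retrotransposons. Its 5 members, Zfp980, Zfp987, Zfp600, Zfp992 and Zfp981, are all KRAB genes, and all 5 rose with log2 fold changes of 0.49 to 0.94 and a median of 0.80. Zfp980, the most abundant, was at 43.8, 34.6 and 40.9 CPM in R783H and at 19.5, 21.3 and 25.5 CPM in WT. Zfp600, the most changed, was at 19.3, 10.5 and 17.99 CPM in R783H and at 8.42, 7.91 and 8.76 CPM in WT (edgeR's quasi-likelihood test, adjusted p = 0.0012). In both genes R783H B was the mutant library nearest to WT, and the groups did not overlap. Summed over the 5, the level was 111, 80.7 and 103 CPM in R783H and 51.9, 55.6 and 63.6 CPM in WT. All 5 have near-identical stretches in other genes, over 100% of the transcript in Zfp987, 54.8% in Zfp992, 15.6% in Zfp980, 12.7% in Zfp600 and 3.98% in Zfp981. Reads of one copy could be counted on another, so the 5 increases are not separate observations.

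Promoter sequences of 4 of these genes show how alike the copies are. They are RefSeq promoters of GRCm38.p6, 250 bases before to 50 after the gene's start, all on the + strand. Capitals mark runs of at least 12 bases present in all 4, and 28 bases are marked in each. The positions are chr4:145670447-145670746 for Zfp980, chr4:146097062-146097361 for Zfp987, chr4:146156577-146156876 for Zfp600 and chr4:146514670-146514969 for Zfp981.
Zfp980: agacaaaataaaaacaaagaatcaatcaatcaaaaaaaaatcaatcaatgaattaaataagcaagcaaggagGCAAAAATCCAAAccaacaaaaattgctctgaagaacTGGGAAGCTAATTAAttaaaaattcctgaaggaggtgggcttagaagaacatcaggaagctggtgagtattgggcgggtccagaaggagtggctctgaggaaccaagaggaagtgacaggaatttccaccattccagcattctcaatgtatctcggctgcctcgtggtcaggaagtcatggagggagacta
Zfp987: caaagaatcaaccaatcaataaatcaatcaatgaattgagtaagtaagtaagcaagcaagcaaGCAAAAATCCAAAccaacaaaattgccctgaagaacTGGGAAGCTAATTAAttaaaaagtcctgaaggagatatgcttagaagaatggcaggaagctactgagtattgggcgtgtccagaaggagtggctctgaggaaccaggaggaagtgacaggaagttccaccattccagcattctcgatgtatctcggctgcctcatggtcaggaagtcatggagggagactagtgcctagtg
Zfp600: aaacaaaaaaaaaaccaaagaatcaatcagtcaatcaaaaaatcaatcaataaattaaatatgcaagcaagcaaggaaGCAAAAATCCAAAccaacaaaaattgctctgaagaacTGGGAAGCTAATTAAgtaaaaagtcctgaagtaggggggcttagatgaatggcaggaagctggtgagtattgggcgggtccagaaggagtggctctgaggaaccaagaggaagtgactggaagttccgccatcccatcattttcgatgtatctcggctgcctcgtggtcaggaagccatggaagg
Zfp981: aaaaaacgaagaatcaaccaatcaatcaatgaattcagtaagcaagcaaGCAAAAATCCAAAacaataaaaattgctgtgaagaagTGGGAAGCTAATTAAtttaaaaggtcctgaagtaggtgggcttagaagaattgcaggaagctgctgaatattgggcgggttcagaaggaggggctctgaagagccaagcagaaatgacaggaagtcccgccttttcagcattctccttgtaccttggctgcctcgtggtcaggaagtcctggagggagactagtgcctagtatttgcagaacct
Aligned in pairs, these promoters were identical at 86.0% (Zfp600 and Zfp981) to 92.9% (Zfp980 and Zfp987) of the aligned bases, and each holds 3 to 5 CpG. The genes with these promoters had log2 fold changes of 0.85 (Zfp980), 0.49 (Zfp987), 0.94 (Zfp600) and 0.79 (Zfp981).

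On chromosome 17, the cluster at chr17:21008941-23599755 had 10 members, all KRAB genes, of which 6 rose and 0 fell, with a median of 0.38 and a range from -0.12 to 1.12. Zfp229 was both its most abundant and its most changed member. At chr17:32765496-33631716, 7 of 9 members rose and 1 fell, with a median of 0.39. Zfp871, the most abundant there, rose from 48.0 ± 6.55 to 62.6 ± 9.30 CPM and was not called after removal of the length and GC trend or without WT B. Zfp101, the most changed there, had a log2 fold change of 0.61.

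Chromosome 7 carries 59 members, of which 30 were called higher and 5 lower, against 30.2% and 35.9% of well-counted genes of that chromosome. The cluster at chr7:29768552-30169775 had 11 members, 7 higher and 1 lower, at a median of 0.24. Its most abundant member, Zfp568, was not called, and its most changed, Zfp566, fell with a log2 fold change of -0.42. At chr7:42473386-43618279, 6 of 8 members rose and 0 fell, with a median of 0.31. Zfp141 was the most abundant there, with a log2 fold change of 0.02 that was not called, and Zfp975 the most changed. At chr7:127233061-127885996, 2 of 8 rose and 2 fell: Zfp553, the most abundant, was not called at 0.08, and Zfp689, the most changed, rose with 0.59. At chr7:24081877-25227876, 2 of 6 rose and 2 fell, among them Zfp574 with -0.18, the most abundant, and Zfp428 with -0.57. At chr7:12412549-12985717, 4 of 5 rose, with Zfp110 at 0.20 and Zfp329 at 0.82. At chr7:27731409-28379228, 2 of 4 rose. Zfp59, the most abundant and most changed there, had a log2 fold change of 0.32 and shares 89.8% of its transcript with a near-identical gene. At chr7:7114683-7209998, 2 of 3 rose, with Zfp954 at 0.36 and Zfp772 at 0.40. At chr7:6131489-6396637, none of 3 was called, with Zfp444 at 0.05 and Zfp787 at -0.21.

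The remaining clusters with positive medians held 3 to 7 members each. On chromosome 9, at chr9:20345136-20605404, 4 of 4 KRAB genes rose. Zfp26, with 22 fingers, was at 46.5, 34.1 and 43.2 CPM in R783H and at 22.6, 23.0 and 27.8 CPM in WT, a log2 fold change of 0.76, and Zfp266, the most abundant, had 0.20 and lost its call under 10 of the 17 alternatives. Zfp846, also of this cluster, had 0.31 and was not called without R783H A, without WT A or after removal of the length and GC trend, where its log2 fold change was -0.064. On chromosome 13, at chr13:66670274-67827000, 3 of 7 rose and 0 fell, with Zfp459 at -0.02, not called, and Zfp738 at 0.82. On chromosome 2, at chr2:150114407-150485063, 2 of 3 rose, with Zfp345 at 0.0035, not called, and Zfp937 at 0.52. The second chromosome 4 cluster, at chr4:147124882-147849126, had 2 of 4 higher, with Zfp979 at 0.02, not called, and Zfp534 at 0.44. On chromosome 8, 2 of 4 rose at chr8:69209018-69774911, with Zfp866 at 0.35 and Zfp868 at 0.51, and 1 of 4 at chr8:71882068-71970333, with Zfp961 at 0.01, not called, and Zfp709 at 0.72. The most abundant member of a cluster was thus not called in several clusters where less abundant members rose.

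Chromosomes 6, 15 and 18 held the 3 clusters with negative medians. At chr6:47815536-48621548, 1 of 6 members rose and 3 fell, with a median of -0.17, although 4 of the 6 are KRAB genes. Zfp956 fell from 16.8 ± 0.442 to 11.8 ± 0.425 CPM, a log2 fold change of -0.51, Zfp212 and Zfp282 fell with -0.32 and -0.24, and Zfp746 rose with 0.34. Zfp777, the most abundant, was not called at -0.11. On chromosome 6 as a whole 2 of 12 members were called higher and 6 lower, where 41.3% of well-counted genes were called higher and 31.8% lower. At chr15:75615200-75975868, 2 of 3 fell, Zfp623 with -0.32 and Zfp41 with -0.18, the latter losing its call under 11 alternatives. At chr18:23952741-24020813, Zfp397 rose with 0.66, Zfp24, the most abundant, was not called at -0.10, and Zfp35 fell with -0.20.

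**Figure D4:**
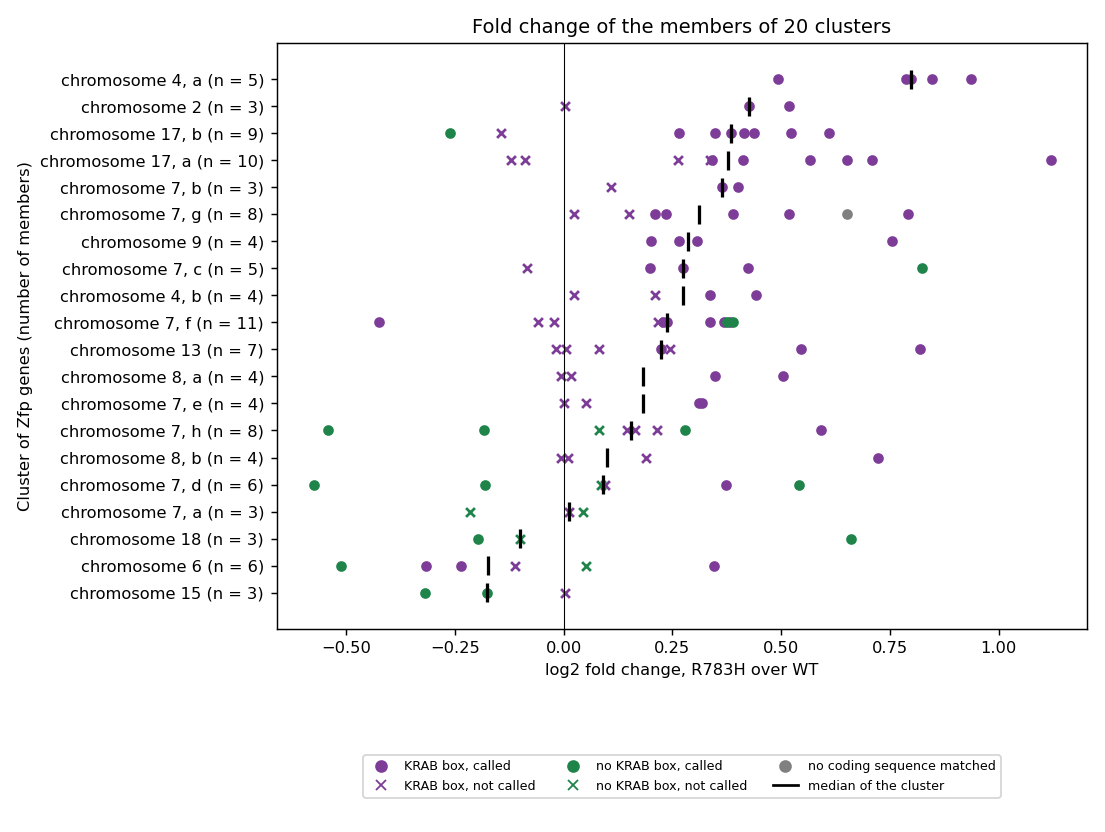
Log2 fold change of R783H over WT (x axis) for the members of the 20 clusters with at least 3 members (y axis, with the number of members; letters order the clusters of a chromosome by position), with KRAB genes in purple, others in green, Zfp977 in grey, circles for called genes, crosses for genes not called and a bar at the cluster's median. The distal chromosome 4 cluster stands highest, with all 5 points between 0.49 and 0.94, and the chromosome 6, 15 and 18 clusters have medians below 0.

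Promoters of the 2 kinds differ in sequence. RefSeq promoters of 300 bases were found for 188 members, 113 of them with a KRAB box and 74 without. The letters CCAAT were found on either strand in 63.7% of KRAB promoters, 43.2% of the others, 40.2% of 7614 well-counted genes and 38.0% of all 27025 promoters. The letters GGGCGG, the core of a GC box, were found in 35.4% of KRAB promoters, 63.5% of the others and 68.9% of well-counted genes. Over all promoters the share was 35.9%, close to that of KRAB promoters. In the order of KRAB, others, well-counted genes and all promoters, AANATGGC was found in 19.5%, 14.9%, 10.4% and 6.20%. CCGGAAG was found in 24.8%, 16.2%, 21.4% and 9.14%, and TATAAA in 7.08%, 10.8%, 5.87% and 14.2%. KRAB promoters held a median of 10 CpG, the others 20, those of well-counted genes 22 and all promoters 7. Promoters of duplicated genes can be near copies, as those printed above are, and each of those holds CCAAT on its other strand. KRAB promoters are therefore not separate observations, and their shares count related copies more than once. A match is a description of letters, and the files hold no measurement of binding at these promoters.

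The genes through which KRAB proteins silence chromatin moved mostly the other way. A list of 30 such genes from general knowledge holds Trim28 with its cofactors in histone and DNA methylation, heterochromatin and SUMO conjugation. Of the 29 tested, 16 were called lower, 6 higher and 7 were not called, and the median log2 fold change was -0.16. Beside these stand 30.9% lower and 33.5% higher in all tested genes, and 36.3% lower and 35% higher in well-counted genes. The number called lower depended on the processing, with 11 under library size alone and 20 under the length and GC offset. Trim28 (Entrez Gene 21849), the corepressor that KRAB boxes bind, stood at 1862, 2039 and 1842 CPM in R783H and at 3758, 3495 and 3268 CPM in WT. Every R783H library lay far below every WT library, and the log2 fold change was -0.87 (SE 0.06; edgeR's quasi-likelihood test, adjusted p = 3.98e-07). Sumo2, whose product modifies Trim28, fell from 9.20 ± 0.159 to 4.56 ± 0.607 CPM, and 31.1% of its transcript is near-identical to other genes. Cbx1, a heterochromatin protein 1, fell from 156 ± 4.50 to 105 ± 5.73 CPM, and Ehmt2, an H3K9 methyltransferase, from 229 ± 10.4 to 166 ± 13.9 CPM. Chd3, a subunit of the NuRD remodelling complex that KRAB-bound Trim28 recruits, rose from 34.8 ± 0.769 to 48.0 ± 2.47 CPM. Whether the level of any partner bears on the zinc finger genes was not tested.

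**Figure D5:**
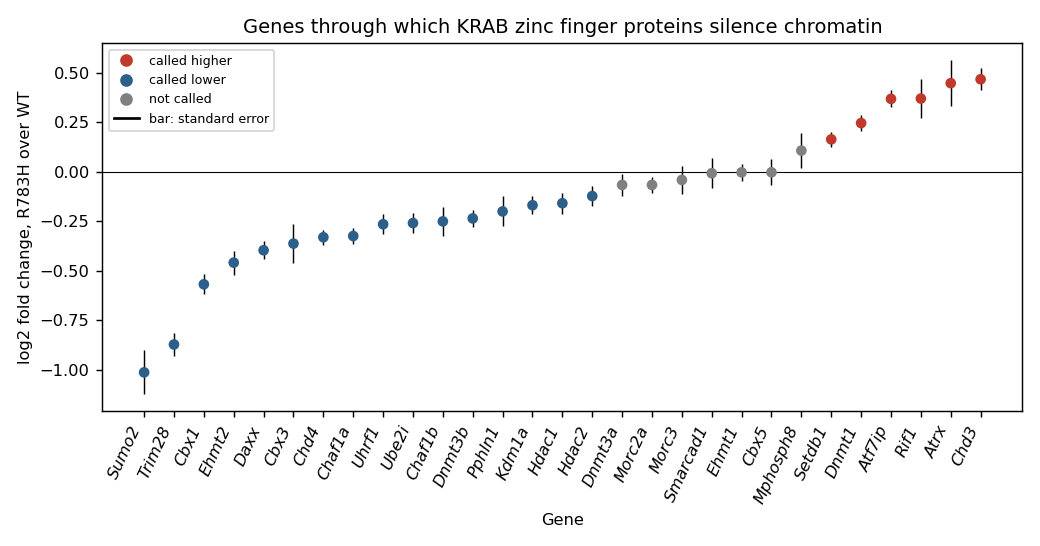
Log2 fold change of R783H over WT (y axis) with its standard error for the 29 tested genes of the KRAB partner list (x axis), in red where called higher, blue where called lower and grey where not called. Sumo2 at -1.01 and Trim28 at -0.87 lie lowest, and Chd3 at 0.47 highest.

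Counts of this family carry a limit from its copies. In 34 members a stretch of at least 100 nt at 98% identity was found in another gene, 25 of them KRAB genes, and exons of 72 members overlap another gene on either strand. Without the 34, 97 of 190 members were called higher and 26 lower. Among the 152 members without exon overlap, 89 were called higher and 19 lower.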

How the data were processed

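The members, lists and tests were chosen with earlier results of these data known. The authors deposited 1 table of raw counts per Entrez Gene identifier, whole numbers without normalization. Reads were aligned to mm10, and HISAT2, SAMtools and CASAVA 1.4 are named, per the submitters' processing notes; the counting tool, its handling of reads with several positions and its use of strand are not given in the sources used here. Symbols came from RefSeq (GRCm38.p6), which matched 25275 of 27179 identifiers and left 1904 without a symbol. Transcript length (longest transcript), GC content, exon overlaps and coding sequences came from GENCODE M21 for 13067 of 14199 tested genes and 223 of 224 members.

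R 4.3.3 with edgeR 4.0.16 was used: filterByExpr (minimum count 10, minimum total 15), TMM scaling, group as the single term, quasi-likelihood test, Benjamini-Hochberg adjustment over 14199 genes, called at an adjusted p under 0.05. SE is the log2 fold change divided by the square root of F. KRAB boxes were found with a profile built from 5 proteins (pyhmmer 0.12.3, E-value 0.001), fingers by the spacing of cysteines and histidines, near-identical copies with BLAST 2.17.0. In simulated data on 14199 genes, 98 of 100 genes changed 2-fold and 87 of 100 changed 1.5-fold were called, with 10 calls among 13999 unchanged genes. That simulation had few changed genes and no length trend, unlike these libraries, so its rates need not hold here. In a second simulation a length trend was planted in 13067 genes. Of these, 3563 were called without the length and GC offset and 1 with it. The planted trend was the only change and had a form that the offset is built to remove, so this outcome was fixed in advance. It cannot show whether the offset also removes true changes that go with length. The common biological coefficient of variation was 5.45%. The text names Trim71, the 10 largest increases and 10 largest decreases among called members without overlap, the most abundant and most changed member of each cluster, the role list, the genes beside the count limit and 5 partner genes; other genes (Zfp566, Zfp248, Zfp212, Zfp282, Zfp35, Zfp846, members of the distal chromosome 4 cluster and Zfp977) were named after their values were seen. The split by GC content was chosen after seeing the data. Alternatives were 17 per gene: DESeq2 1.42.0, limma-voom 3.58.1, other scalings, filters, equal depth, an offset for length and GC, a replicate block and 6 fits that leave out a library. Reads carry no molecular identifiers and may be copies of a molecule, so the spread between libraries was used for every test.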

Additional observations from a re-analysis of the deposited data

How the results depend on the processing

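Of the 116 members called higher, 78 kept that call under all 17 alternatives, as did 20 of the 29 called lower; of the 74 KRAB genes called higher 46 did, and of the 5 called lower 5. Leaving out each library in turn gave 92 to 130 members called higher, 25 to 37 lower, 54 to 83 KRAB genes higher and 5 to 8 lower. Library size alone as the scaling gave 141 higher and 23 lower, with the median of all genes at 0.11 in place of 0.03. A limit of 500 mean counts left 121 members, of which 62 were called higher and 18 lower. With a limit of 100 mean counts, 145 of 284 were called higher and 33 lower. With the length and GC offset, 9 KRAB genes were called lower (9 also with the replicate block) and 3 partner genes higher in place of 6. Partner genes called lower numbered 20 with the offset and 11 with library size alone, in place of 16. The cause was not tested. Whether the letters A, B and C pair the libraries is not given. Same-letter correlations of deviations from the group mean were -0.07, 0.007 and 0.085, and other pairs ran from -0.13 to 0.13. Deviations from a mean of 3 libraries depend on each other, so these values cannot decide it. The fit with a replicate block called 121 members higher and 28 lower and 9260 genes in all, in place of 9152. Calls of Zfp534 were lost with DESeq2 and without R783H A or WT A, that of Zfp772 without WT A and those of Zfp574 and Zfp35 with library size alone. A count of 3 equals 0.0998 to 0.149 CPM, so detection does not limit any member.

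Trim71 turned negative with the length and GC offset (log2 fold change -0.21, edgeR's quasi-likelihood test, adjusted p = 0.0107; -0.21 with the block) and ran from -0.022 to 0.13 when a library was left out. Over all 224 members, 46 changed sign under at least 1 alternative, 42 of them not called and 4 called (Zfp148, Zfp266, Zfp609 and Zfp846). The values below are those of genes named in the text. With the offset, and with offset and block, the log2 fold changes that changed sign were Zfp141 (-0.053 and -0.054), Zfp148 (-0.024 and -0.024), Zfp266 (-0.0068 and -0.0068), Zfp296 (0.19 and 0.19), Zfp345 (-0.016 and -0.036), Zfp444 (-0.051 and -0.049), Zfp445 (-0.028 and -0.035), Zfp451 (-0.26 and -0.26), Zfp57 (0.013 and 0.012), Zfp609 (-0.029 and -0.029), Zfp777 (0.016 and 0.016), Zfp846 (-0.064 and -0.060) and Zfp979 (-0.044 and -0.048). With library size alone, the named genes were Zfp281 (0.024), Zfp296 (0.047), Zfp346 (0.030), Zfp384 (0.0086), Zfp459 (0.065), Zfp568 (0.060) and Zfp57 (0.037). Zfp345 was -0.020 with RLE factors, -0.023 with DESeq2, -0.021 with limma-voom, -0.044 at equal depth and -0.021 with the replicate block; Zfp961 was -0.012 with RLE factors and -0.012 with DESeq2, and Zfp979 was -0.00011 with DESeq2. Without each library in turn, Zfp141 ran from -0.032 to 0.090, Zfp281 from -0.12 to 0.018, Zfp296 from -0.13 to 0.014, Zfp345 from -0.18 to 0.18, Zfp444 from -0.042 to 0.084, Zfp459 from -0.061 to 0.0095, Zfp568 from -0.061 to 0.0051, Zfp961 from -0.036 to 0.040 and Zfp979 from -0.072 to 0.14. Among the genes listed above whose sign changed with the offset, Trim71 and Zfp451 became called lower and Zfp296 higher (edgeR's quasi-likelihood test, adjusted p = 9.22e-05 for Zfp451 and 0.000523 for Zfp296), and the block with the offset gave the same 3 calls. This is not a full list of gained calls. Zfp106, Zfp644, Zfp568 and Zfp24 were called lower under at least 1 alternative, with log2 fold changes reaching -0.36, -0.38, -0.21 and -0.27. Zfp445 and Zfp553 were called higher under at least 1, with log2 fold changes reaching 0.25 and 0.18.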
